A study of Mus musculus with 8 samples.

Results

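The genes described here mark the tissues that mesenchymal stem cells can form: bone, cartilage, fat, skeletal muscle and tendon, together with 3 factors of the shared mesenchymal progenitor. They are 32 named genes out of the 35498 genes in the tables, 8 for bone, 6 for cartilage, 9 for fat, 3 for muscle, 3 for tendon and 3 mesenchymal. The list names them by symbol. It was set by lineage and not by a measured difference, but with earlier results of these data known. All 32 were found, and 22 of them had enough reads to be tested.

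Bulk RNA sequencing was carried out on mouse sarcoma cells recovered from tumours. The sarcoma line was made from mesenchymal stem cells of strain C57BL/6 that lack p53 and overexpress Ccne1, the gene for cyclin E1. Both alterations are present in every library, so no library here represents untransformed stem cells. The cells then received a guide RNA or a short hairpin RNA, either against Mif, which encodes macrophage migration inhibitory factor, or a non-targeting control.

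There were 4 groups of 2 libraries: sgSCR (control guide, Mif wild type), sgMif (Mif guide, Mif knockout), shSCR (control hairpin, Mif wild type) and shMif (Mif hairpin, Mif knockdown). The design text places Cas9 in both the guide and the hairpin lines, whereas the growth protocol names it for the guide samples alone. Tumours were grown from cells seeded on polyurethane scaffolds beneath the skin of secondary recipients and were dissociated, and cells carrying a fluorescent marker were sorted before RNA extraction. The labels do not tell whether the libraries within a group are from different mice. The p-values below therefore measure how far these libraries spread, and that spread may be technical. All groups derive from 1 named sarcoma line, and every library is labelled as whole tumour in its source and as tumour cells in its cell type.

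Lineage choice in mesenchymal cells is set by transcription factors. Runx2 and then Sp7 (osterix) direct bone, Sox9 with Sox5 and Sox6 directs cartilage, Pparg with Cebpa directs fat, Myod1 and Myog direct skeletal muscle, and Scx and Mkx direct tendon. Twist1, Twist2 and Prrx1 mark mesenchyme before it commits, and the Twist proteins are known to hold Runx2 in check. The remaining genes encode products that a committed cell makes, such as matrix proteins, lipid-handling proteins and intermediate filaments.

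Library depth ran from 19042235 to 51819308 reads. Mif itself gave 377 and 455 counts scaled to library size (CPM) in the sgSCR libraries and 221 and 222 in the sgMif libraries, a log2 difference of -0.91 ± 0.32 (SE) with an edgeR adjusted p of 0.215. The shSCR libraries gave 170 and 375 CPM and the shMif libraries 277 and 222 (log2 difference -0.13 ± 0.32, edgeR adjusted p = 0.925). These groups overlapped because of shSCR 1, as shSCR 2 lay above both shMif libraries. Read counts in shSCR 1 stood apart for several GC-rich genes (below), and whether this holds for Mif was not tested. The shMif libraries are therefore called the libraries labelled shMif. A guide can disrupt the protein without lowering the transcript, so the Mif level does not check the knockout directly. Reads on 1406 olfactory receptor genes, genes known mainly from sensory neurons of the nose, stood at 1330 to 2544 CPM in both sgSCR libraries and in sgMif 1, shSCR 1 and shMif 1, and at 380 to 553 CPM in sgMif 2, shSCR 2 and shMif 2. That division crosses 3 of the 4 groups.

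Transcript abundance was compared between genes in TPM, which divides reads by transcript length and scales each library to the same total. Of the 32 genes, 16 had a mean of at least 1 TPM over the 8 libraries and 8 reached 10 TPM. Over all 35498 genes the corresponding shares were 36.5% and 22.5%. Of the 17 transcription factors 10 reached 1 TPM and 7 reached 10 TPM. Of the 15 products 6 reached 1 TPM and 1, Spp1, reached 10 TPM, and the difference between factors and products was not tested. In order of mean TPM the leading genes were Spp1 (1773), Prrx1 (119), Twist1 (69.9), Sox9 (69.8), Twist2 (60.6), Runx2 (46.3), Scx (16.0) and Sox5 (11.7). From Twist1 to Runx2 the ranges over libraries overlapped between neighbours in this order.

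**Figure D1:**
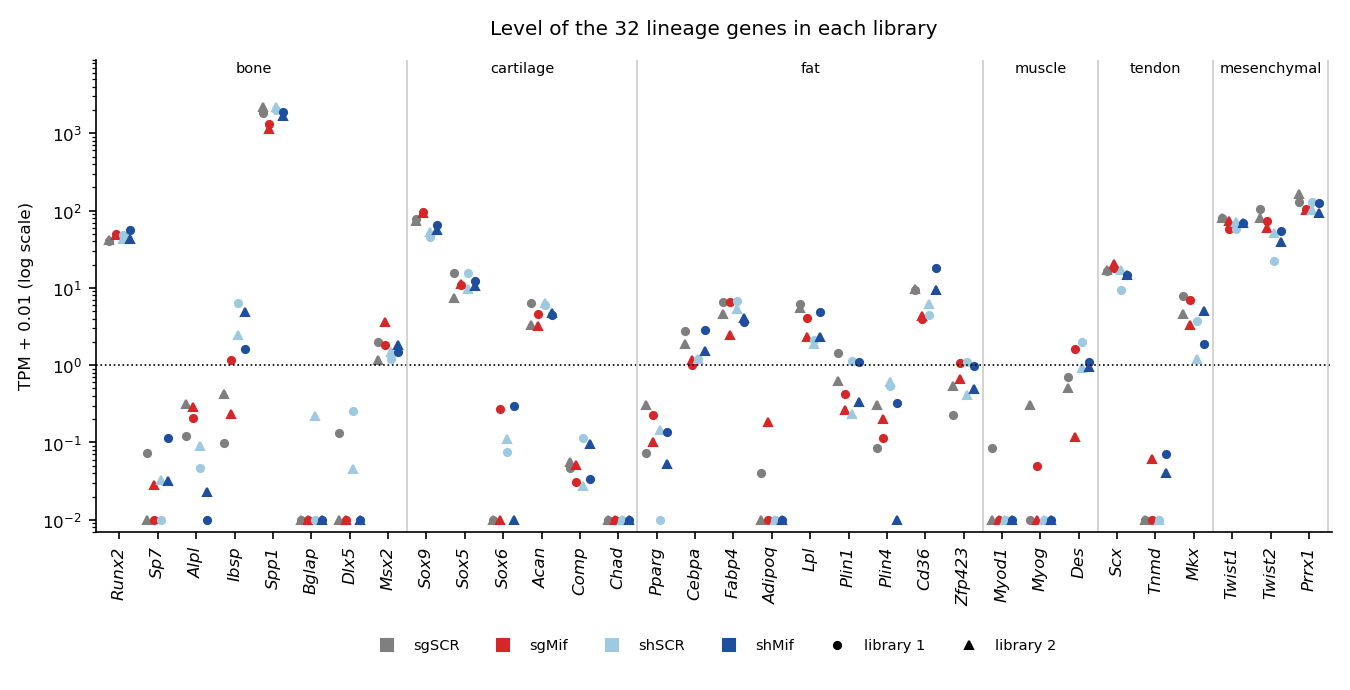
TPM of each of the 32 genes (horizontal axis, grouped by lineage) in each library (points; colour gives the group, circle and triangle the library number), on a logarithmic vertical axis after adding a small constant so that zeros can be drawn at the bottom. Spp1 stands above 1000 TPM in all 8 libraries, Runx2, Sox9, Prrx1, Twist1 and Twist2 lie between 22.2 and 166 TPM, and the 16 genes with a mean under 1 TPM sit at or below the dotted line at 1 TPM in most libraries.

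Among the bone genes, Runx2 ranged little and Spp1 was abundant, while Sp7, Alpl, Dlx5 and Bglap were close to 0. Runx2, the factor that starts bone formation (ENSMUSG00000039153, chromosome 17, 44495987 to 44814797, minus strand, mm10), stood at 40.5 and 41.5 TPM in sgSCR, 49.2 and 48.7 in sgMif, 48.6 and 42.3 in shSCR and 56.8 and 43.1 in shMif. Its highest library was 1.40 times its lowest, the narrowest range among the 16 genes at 1 TPM or more. Sp7, the factor that acts after Runx2, had 18 reads in all 8 libraries together. Alpl, the bone alkaline phosphatase, had 51 reads, Dlx5, a homeobox factor of early bone, had 16, and Bglap, which encodes osteocalcin, had 1. Against 270712172 reads in all, the limit that a count of 0 allows (3 reads) is 0.0111 CPM, for counting error only.

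Bglap has close copies next to it, and the authors' counting divides shared reads between them, so its value is uncertain. Over the 8 libraries Bglap2 had 2 reads and Bglap3 had 156. Adding the 3 copies gave no difference past the threshold in any comparison, with edgeR adjusted p from 0.242 to 0.981.

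Spp1, which encodes the secreted matrix phosphoprotein osteopontin (ENSMUSG00000029304, chromosome 5, 104435118 to 104441050, plus strand, mm10), was the most abundant of the 32 genes. It stood at 1818 and 2165 TPM in sgSCR, 1317 and 1120 in sgMif, 2028 and 2200 in shSCR and 1868 and 1671 in shMif. Osteopontin is also made by macrophages and by many tumour cells, and macrophage markers were measured in the same libraries (below). Ibsp, which encodes bone sialoprotein and lies near Spp1 on chromosome 5 (104299171 to 104311469, plus strand), stood at 0.0878 and 0.416 TPM in sgSCR, 1.15 and 0.224 in sgMif, 6.36 and 2.48 in shSCR and 1.63 and 4.83 in shMif. All 4 hairpin libraries were above all 4 guide libraries, and the highest was 72.4 times the lowest, the widest range of the 16 genes. The Ibsp values in sgSCR 1, the lowest library, and in sgSCR 2 rested on 5 and 12 reads. Msx2, a homeobox factor of early bone, stood at 1.99 and 1.16 TPM in sgSCR, 1.82 and 3.60 in sgMif, 1.2 and 1.47 in shSCR and 1.45 and 1.79 in shMif, and its groups overlapped.

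The promoters of Runx2, Spp1 and Bglap are shown because Spp1 and Bglap are textbook targets of Runx2 at opposite ends of the measured range. Their promoter windows from RefSeq (GRCm38.p6, 250 bases before to 50 after the annotated start, 300 in all) are given here 5′ to 3′ on the strand of the gene. Capitals mark the motif ACCACA, a core letter run of the RUNX binding motif, which was searched on both strands. The windows lie at chr17:44814578-44814877 (Runx2, minus strand), chr5:104434861-104435160 (Spp1, plus strand, the more upstream of its RefSeq starts) and chr3:88384417-88384716 (Bglap, minus strand).
Runx2: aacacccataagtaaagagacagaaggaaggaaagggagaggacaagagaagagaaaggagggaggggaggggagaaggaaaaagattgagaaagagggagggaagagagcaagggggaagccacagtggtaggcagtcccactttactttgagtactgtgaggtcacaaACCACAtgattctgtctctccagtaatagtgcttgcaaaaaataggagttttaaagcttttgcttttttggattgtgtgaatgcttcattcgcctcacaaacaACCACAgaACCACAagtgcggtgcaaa
Spp1: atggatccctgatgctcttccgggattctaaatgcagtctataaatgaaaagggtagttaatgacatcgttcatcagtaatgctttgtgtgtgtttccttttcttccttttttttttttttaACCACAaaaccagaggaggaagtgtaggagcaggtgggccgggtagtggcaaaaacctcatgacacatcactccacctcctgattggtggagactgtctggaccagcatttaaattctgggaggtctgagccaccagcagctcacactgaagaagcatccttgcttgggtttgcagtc
Bglap: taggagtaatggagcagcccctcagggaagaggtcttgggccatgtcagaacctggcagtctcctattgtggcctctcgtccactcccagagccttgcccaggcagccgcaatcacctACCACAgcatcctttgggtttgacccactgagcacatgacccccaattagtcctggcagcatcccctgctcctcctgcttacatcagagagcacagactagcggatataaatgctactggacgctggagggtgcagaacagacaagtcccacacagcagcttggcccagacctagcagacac

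The Runx2 window holds the motif 3 times, at 80 bases before the start and at 24 and 32 bases after it. The Spp1 window holds it once, 128 bases before the start, and the Bglap window once, 132 bases before the start. The window of Ibsp holds none. The Runx2 window lies at the distal starts of the gene (below), and no window covers its proximal starts. The distal transcript with the highest TPM starts at base 44814797, inside this window. The match before the RefSeq start lies downstream of that base on the strand of the gene. Of all 32851 windows in the table, 16.8% hold the motif at least once and 0.183% hold it 3 times or more. A match is a description of letters: Spp1 at 1773 TPM and Bglap with 1 read each have 1. Windows were matched for 23 of the 32 genes, and the TATAAA motif, searched the same way and found in 13.6% of all windows, is also in the Bglap window and in the Spp1 window.

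Runx2 has a distal and a proximal promoter, and the distal transcripts are the ones most closely tied to bone-forming cells. The annotation holds 7 transcripts starting at the distal site and 6 starting 78149 to 80104 bases further downstream. Distal transcripts averaged 14.4 TPM and proximal ones 31.9 TPM. The distal share of Runx2 TPM was 24.0% and 32.4% in sgSCR, 23.5% and 38.6% in sgMif, 35.7% and 32.2% in shSCR and 23.0% and 41.4% in shMif. The groups overlapped in this share. Leaving out a proximal model of 440 bases to which Salmon gave 29.4% of the gene's TPM, raised the distal share to between 29.8% and 69.6%, with shSCR 1 the highest, and sgSCR (29.8% and 41.8%) then lay below shSCR (69.6% and 47.3%). Isoform shares from short reads are estimates, and short models are the least certain.

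**Figure D2:**
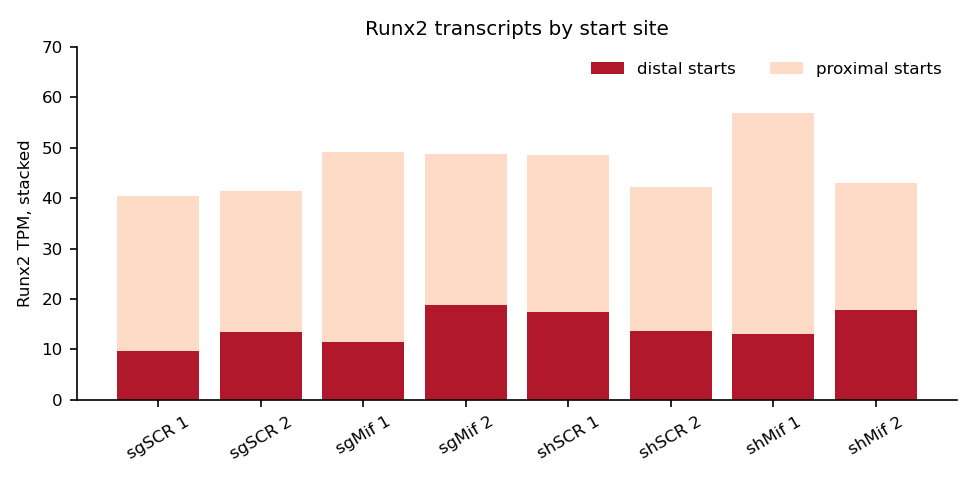
Runx2 TPM in each of the 8 libraries (horizontal axis), stacked by transcripts from the distal starts (dark, bottom) and the proximal starts (light, top). The proximal part is the larger in every library, and the total runs from 40.5 to 56.8 TPM.

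In the cartilage list Sox9, Sox5 and Acan were present and Sox6, Comp and Chad were close to or at 0. Sox9, the master factor of chondrocytes (ENSMUSG00000000567, chromosome 11, 112782224 to 112787760, plus strand), stood at 76.7 and 74.0 TPM in sgSCR, 94.5 and 94.1 in sgMif, 45.1 and 52.2 in shSCR and 65.7 and 56.1 in shMif. Both guide groups were above both hairpin groups, and in each system the libraries labelled for Mif targeting were above their controls. Its partner Sox5 stood at 15.7 and 7.29 TPM in sgSCR, 10.8 and 11.3 in sgMif, 15.8 and 9.70 in shSCR and 12.2 and 10.6 in shMif. Only 35.7% of the Sox5 TPM lay on protein-coding transcripts, because a noncoding model of 351 bases held 58.0%. On coding transcripts Sox5 averaged 4.16 TPM. The other partner, Sox6, had 13 reads in all.

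Acan, which encodes aggrecan, the main proteoglycan of cartilage, stood at 6.38 and 3.30 TPM in sgSCR, 4.55 and 3.22 in sgMif, 5.98 and 6.38 in shSCR and 4.46 and 4.70 in shMif. Comp, a matrix protein of cartilage and tendon, had 28 reads over the 8 libraries and Chad, which encodes chondroadherin, had 0. Thus 1 of the 3 listed cartilage products reached 1 TPM, against 2 of the 3 factors.

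The fat list was low, with no gene at a mean of 10 TPM over the 8 libraries. Pparg, the factor required for fat cell formation, had 45 reads in all and Adipoq, which encodes the fat cell hormone adiponectin, had 3. Cebpa, the partner factor (chromosome 7, 35119293 to 35121928, plus strand), stood at 2.73 and 1.85 TPM in sgSCR, 0.986 and 1.16 in sgMif, 1.21 and 1.19 in shSCR and 2.87 and 1.5 in shMif. Both sgMif libraries were below both sgSCR libraries, and both libraries labelled shMif were above both shSCR libraries.

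Cd36, a receptor that takes up fatty acids (chromosome 5, 17781690 to 17888801, minus strand), stood at 9.28 and 9.68 TPM in sgSCR, 3.91 and 4.37 in sgMif, 4.48 and 6.15 in shSCR and 18.1 and 9.39 in shMif. Lpl, which encodes the lipase that frees fatty acids from lipoproteins (chromosome 8, 68880491 to 68907448, plus strand), stood at 6.19 and 5.50 TPM in sgSCR, 4.02 and 2.31 in sgMif, 2.09 and 1.89 in shSCR and 4.88 and 2.32 in shMif. Cd36 and Lpl thus showed the same order of groups as Cebpa within each system. On its coding transcript, which held 61.1% of the gene's TPM, Lpl stood at 2.64 and 3.24 in sgSCR, 2.58 and 1.98 in sgMif, 1.09 and 1.51 in shSCR and 2.99 and 1.81 in shMif.

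Fabp4, a fatty acid carrier of fat cells and macrophages, stood at 6.65 and 4.63 TPM in sgSCR, 6.52 and 2.47 in sgMif, 6.74 and 5.28 in shSCR and 3.60 and 4.10 in shMif. The lipid-droplet coat genes were lower: Plin1 ranged from 0.225 to 1.44 TPM and Plin4 from 0 to 0.591. Zfp423, a factor that marks cells committed to fat, ranged from 0.215 to 1.10 TPM. Cd36, Lpl, Fabp4 and Cebpa are also expressed by macrophages, whereas Adipoq and Plin1 are more particular to fat cells.

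None of the 3 muscle genes reached a mean of 1 TPM. Myod1, the factor that sets muscle identity, had 5 reads, all in sgSCR 1, and Myog, which acts after it, had 8. Des, which encodes the muscle intermediate filament desmin, ranged from 0.108 to 1.97 TPM with a mean of 0.974. Of the Des TPM, 61.5% lay on its coding transcript.

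For tendon, the factors Scx and Mkx were present and the product Tnmd was close to 0. Scx (scleraxis) stood at 16.5 and 16.9 TPM in sgSCR, 17.9 and 20.6 in sgMif, 9.47 and 17.1 in shSCR and 14.6 and 14.8 in shMif, with shSCR 1 below all other libraries. Mkx, a homeobox factor that maintains tendon, stood at 7.82 and 4.56 TPM in sgSCR, 6.90 and 3.33 in sgMif, 3.67 and 1.2 in shSCR and 1.87 and 5.03 in shMif. Coding transcripts held 48.6% of the Mkx TPM and averaged 2.09 TPM. Tnmd, the membrane protein tenomodulin of mature tendon, had 4 reads in all.

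Each of the 3 mesenchymal factors had a mean above 10 TPM. Prrx1, a homeobox factor of limb mesenchyme, stood at 129 and 166 TPM in sgSCR, 105 and 100.4 in sgMif, 128 and 102 in shSCR and 123 and 94.1 in shMif. Twist1 stood at 80.8 and 80.3 TPM in sgSCR, 57.0 and 73.5 in sgMif, 57.3 and 71.2 in shSCR and 69.3 and 69.3 in shMif. Both sgMif libraries were below both sgSCR libraries for Prrx1 and for Twist1 on this scale. Twist2 stood at 105 and 80.1 TPM in sgSCR, 73.9 and 59.3 in sgMif, 22.2 and 51 in shSCR and 53.9 and 38.9 in shMif, so that all guide libraries were above all hairpin libraries. Pdgfra, a receptor that marks mesenchymal cells, ran from 115 to 174 TPM, and all 3 mesenchymal factors and Pdgfra were present in every library.

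The shSCR 1 library stood apart for several GC-rich genes, and reads and TPM then gave different pictures. Salmon's effective length for the Twist1 transcript, which divides reads when TPM is formed, was 968 bases in shSCR 1 and 1995 to 2267 bases in the other 7 libraries. That transcript has a GC content of 59.3%. In CPM, which uses no length, Twist1 was 50.1 in shSCR 1 and 115 to 160 elsewhere, whereas in TPM the same library, at 57.3, lay within the range of the others. The effective length of Cebpa (GC content 62.6%) was 1949 bases in shSCR 1 against 3309 to 3655, and that of Ibsp (45.2%) was 1752 against 1605 to 1662. Mitochondrial transcripts took 1.63% of reads in shSCR 1 and 2.12% to 2.65% in the others. The tests below use reads. For tests on all 8 libraries, results that rest on the shSCR group are therefore also given with length-scaled counts where these differ by more than 1.5 times. Length-scaled counts are read counts rebuilt from TPM and mean transcript length.

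RNA of genes that mark other cell types was present in the libraries of sorted cells, and its source was not tested. Summed over 14 macrophage markers, all 14 of which reached a mean of 1 TPM, the level was 352 and 168 TPM in sgSCR, 135 and 99.9 in sgMif, 199 and 238 in shSCR and 404 and 201 in shMif. Lyz2 alone gave 44.9 and 35.1 TPM in sgSCR, 75.2 and 34.1 in sgMif, 85.8 and 91.3 in shSCR and 166 and 79.7 in shMif. Without Lyz2 the other 13 summed to 307 and 133 TPM in sgSCR, 60.2 and 65.8 in sgMif, 114 and 147 in shSCR and 238 and 121 in shMif. For the 7 adipocyte markers the sum ran from 0.540 to 1.93 TPM, and none of them reached a mean of 1 TPM. For 7 skeletal muscle fibre markers it ran from 4.28 to 25.8 TPM, highest in sgSCR 1, where Mylpf alone gave 17.5 TPM. Without Mylpf the other 6 summed to 8.33 TPM in sgSCR 1 and were highest in shMif 1, at 11.8 TPM. In bulk samples such as these, fewer cells of a type and less RNA per cell cannot be told apart.

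The guide comparison asked how the lineage genes differed when Mif was targeted by Cas9. Against sgSCR, the sgMif libraries had less Spp1, Cd36, Cebpa and Prrx1 by unadjusted tests, and no lineage gene passed the adjusted threshold. With edgeR's quasi-likelihood test and Benjamini-Hochberg adjustment over 16309 genes, 0 of the 22 tested genes had an adjusted p under 0.05, where 0.987% of all genes did. At an unadjusted p under 0.05, 4 of the 22 were lower and 0 higher, where 7.51% of all genes were lower and 9.09% higher. DESeq2 called 3 of them, against 6.05% of all genes it tested.

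For Spp1 the log2 difference was -0.61 ± 0.14 (edgeR adjusted p = 0.0935), a 1.53-fold lower level. Cd36 differed by -1.15 ± 0.32 (edgeR adjusted p = 0.134), Prrx1 by -0.53 ± 0.17 (0.169; -0.29 without sgSCR 2) and Cebpa by -1.06 ± 0.43 (0.278). The 3 genes that DESeq2 called were Spp1 (adjusted p = 0.00392), Cd36 (0.0305) and Prrx1 (0.0485). Sox9 was 0.37 ± 0.18 higher and Runx2 0.21 ± 0.14 higher, with 95% intervals of -0.05 to 0.79 and -0.12 to 0.53. The tested genes had a median log2 difference of -0.30, and all 16309 genes one of -0.01. Among the 22, both sgMif libraries were above both sgSCR libraries in CPM for 4 genes and below for 9, where 27.1% of all genes separated upward and 24.2% downward.

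By lineage, 7 of 8 tested fat genes were lower in sgMif and 1 was higher, with a median of -0.51. None was past the adjusted threshold by edgeR, and for Pparg, Plin4 and Fabp4 the difference was smaller than its SE. Over all 16309 genes 8242 were lower. In the same comparison 13 of the 14 macrophage markers were lower, 2 of them past the edgeR threshold, with a median of -1.41. Of 7 skin fibroblast markers 5 were lower, 1 past the threshold, and most of their summed level was Dcn (decorin), at 1092 and 900 TPM in sgSCR and 272 and 159 TPM in sgMif. Without Dcn the other 6 summed to 288 and 284 TPM in sgSCR and 237 and 204 TPM in sgMif. Of 9 endothelial markers 8 were higher and 1 lower, 0 past the edgeR threshold, with a median of 1.31. Without Pecam1 the other 8 endothelial markers summed to 13.8 and 24.7 TPM in sgSCR and 57.1 and 13.0 in sgMif. The part of macrophages, fibroblasts and endothelial cells in the lower Cd36, Cebpa and Spp1 was not tested. The 2 tested adipocyte markers went in opposite directions.

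**Figure D3:**
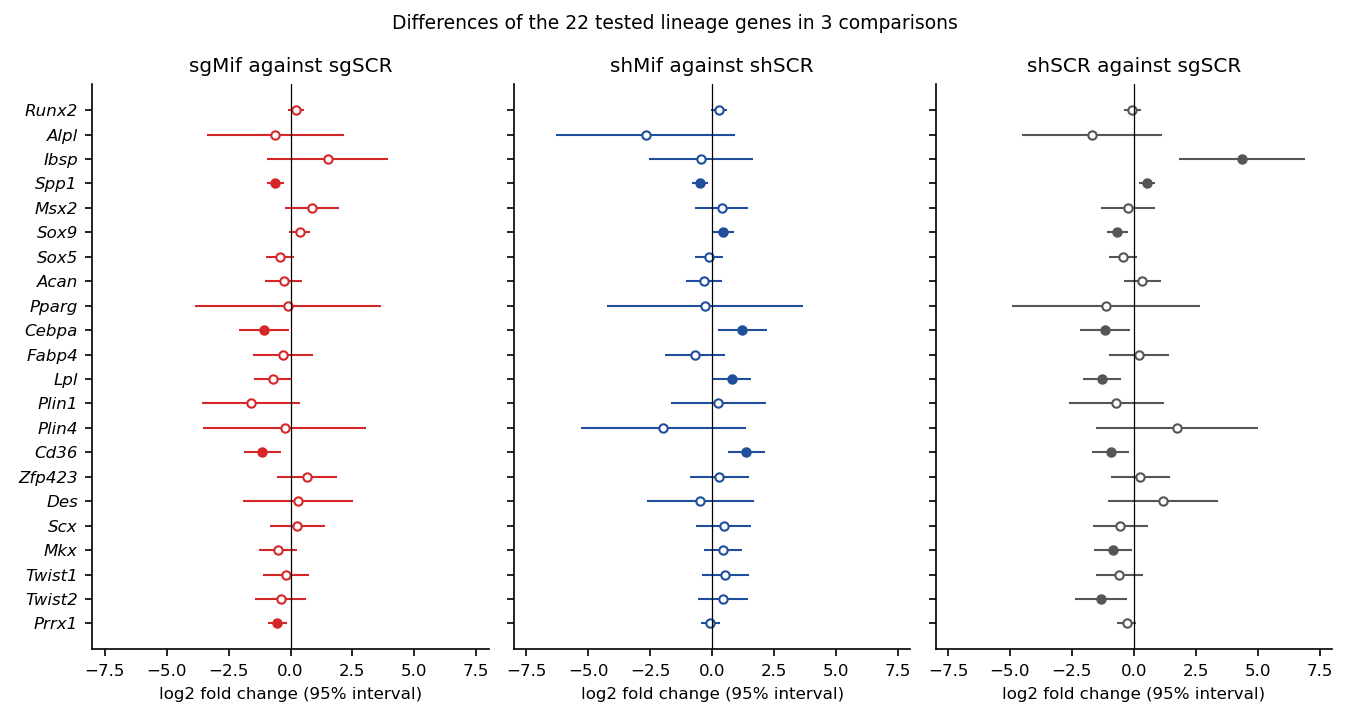
Log2 fold changes (horizontal axis, points) with 95% intervals (bars) from edgeR for the 22 tested lineage genes (vertical axis) in the comparisons sgMif against sgSCR, shMif against shSCR and shSCR against sgSCR. Filled points have an unadjusted p under 0.05; none passed the adjusted threshold, and Cd36, Cebpa and Lpl lie left of 0 in the first panel and right of 0 in the second.

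The hairpin comparison asked the same of the libraries labelled as a knockdown. Their Mif was not detectably lower in CPM, where the overlap with the controls rested on shSCR 1. The libraries labelled shMif had more Cd36, Cebpa, Lpl and Sox9 and less Spp1 than the shSCR libraries by unadjusted tests, and again no gene passed after adjustment. With edgeR, 0 of 22 genes had an adjusted p under 0.05, against 0.0184% of all genes, and 4 were higher and 1 lower at an unadjusted p under 0.05, against 4.18% and 5.08% of all genes. DESeq2 called 1, against 1.17% of the genes it tested. Both libraries labelled shMif were above both shSCR libraries for 7 genes and below for 5, where 19.4% of all genes separated upward and 22.3% downward. Alpl was among the 5, on 3 and 9 reads in shSCR and 0 and 1 in shMif. It passed the filter through guide libraries, at 0.648 CPM in sgSCR 2 and 0.411 in sgMif 1.

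Cd36 differed by 1.37 ± 0.32 on the log2 scale (edgeR adjusted p = 0.417), a 2.59-fold higher level, and was the gene that DESeq2 called (adjusted p = 0.0155). Cebpa differed by 1.22 ± 0.43 (edgeR adjusted p = 0.489) and by 0.81 with length-scaled counts. Lpl differed by 0.80 ± 0.33 (edgeR adjusted p = 0.527). In the guide comparison Lpl differed by -0.70 ± 0.33 (edgeR adjusted p = 0.335), so all 3 had values of opposite sign there, with none past the adjusted threshold in either system. Without shMif 1 the hairpin values were smaller, 0.82 for Cd36, 0.71 for Cebpa and 0.31 for Lpl. Sox9 differed by 0.45 ± 0.18 (edgeR adjusted p = 0.523), by 0.28 with length-scaled counts and by 0.19 without shSCR 1. Spp1 differed by -0.50 ± 0.14 (edgeR adjusted p = 0.455) and by -0.30 with length-scaled counts.

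The median of the 22 genes was 0.26 and that of all genes 0.03. Of the 14 macrophage markers 13 were higher in the libraries labelled shMif, 0 past the edgeR threshold and 0 at an unadjusted p under 0.05, with a median of 0.32. Of the 7 skin fibroblast markers 6 were higher, 4 of them at an unadjusted p under 0.05. Of the 9 endothelial markers 2 were higher and 7 lower, 0 at an unadjusted p under 0.05, with a median of -0.20. As in the guide comparison, the part of these cell types in the Cd36, Cebpa and Lpl values was not tested.

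Without shSCR 2, edgeR called 4 members in this comparison, Sox9, Scx, Twist1 and Twist2, all higher in the libraries labelled shMif (log2 differences 0.75, 1.69, 1.5 and 1.48), against 4.33% of all genes. That setting leaves shSCR 1 as the lone control, which is assumed to vary like the other groups and is the library with the short effective lengths described above. Length-scaled counts were not run for it. In TPM, Twist1 was 57.3 in shSCR 1 against 69.3 and 69.3 in shMif, and Scx 9.47 against 14.6 and 14.8. Sox9 was 45.1 against 65.7 and 56.1, and Twist2 22.2 against 53.9 and 38.9.

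The difference between the 2 effects was tested as an interaction. Of the 22 genes 0 passed with edgeR, against 0.092% of all genes, and at an unadjusted p under 0.05 the effect in the guide system was higher for 0 and lower for 3, against 8.93% and 6.83% of all genes. Those 3 were the fat genes Cd36, Cebpa and Lpl. DESeq2 called 2 of them, Cd36 (adjusted p = 0.000122) and Cebpa (0.0184), against 3.86% of all genes it tested. Cd36 differed between the systems by -2.52 ± 0.46 (edgeR adjusted p = 0.110), Cebpa by -2.28 ± 0.61 (0.175) and Lpl by -1.5 ± 0.47 (0.205). For Runx2 the difference was -0.07 with a 95% interval of -0.53 to 0.39, and for Spp1 it was -0.11 with an interval of -0.57 to 0.36.

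**Figure D4:**
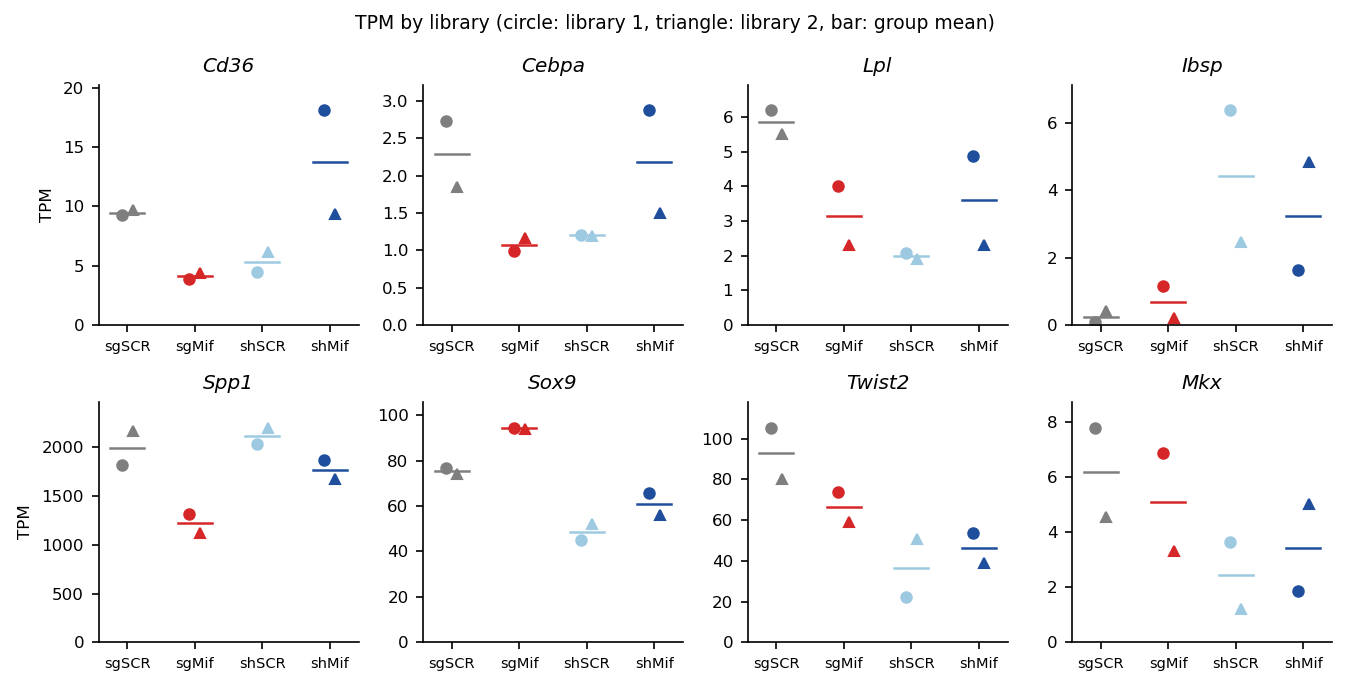
TPM (vertical axes, each starting at 0) of 8 lineage genes in the 4 groups, with a circle for library 1, a triangle for library 2 and a bar for the group mean. Cd36, Cebpa and Lpl are lower in sgMif than in sgSCR and higher in shMif than in shSCR, Sox9 is higher in sgMif and in the libraries labelled shMif than in their controls, and Ibsp and Twist2 separate the guide from the hairpin libraries.

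The control hairpin and control guide groups are both labelled Mif wild type, although Mif in the library labelled shSCR 1, at 170 CPM, was the lowest of all 8. The 2 groups differ in the delivered RNA and, if the growth protocol holds, also in Cas9. In the shSCR libraries Ibsp and Spp1 were higher and Sox9, Lpl, Twist2, Cd36, Cebpa and Mkx lower by unadjusted tests. With edgeR, 0 of 22 genes passed the adjusted threshold, against 4.02% of all genes, and 2 were higher and 6 lower at an unadjusted p under 0.05, against 12.9% and 10% of all genes. DESeq2 called 4, Ibsp, Spp1, Sox9 and Lpl, against 12.2% of the genes it tested. The 2 groups separated in CPM for 4 genes upward and 8 downward, where 28.4% of all genes separated upward and 26.3% downward. Alpl was among the 8, on 9 and 13 reads in sgSCR and 3 and 9 in shSCR. As it passed the filter through guide libraries, the filter favoured the downward direction for it. These controls also enter the comparisons above, so the values are not independent of them.

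Ibsp differed by 4.36 ± 1.10 on the log2 scale (edgeR adjusted p = 0.0686), with a 95% interval of 1.83 to 6.89. Lpl differed by -1.30 ± 0.33 (edgeR adjusted p = 0.0707) and Sox9 by -0.67 ± 0.18 (0.0827). These were the genes nearest the threshold together with Spp1. Spp1 differed by 0.53 ± 0.14 (edgeR adjusted p = 0.0817) in reads, but by 0.19 with length-scaled counts, and its TPM overlapped between the groups. An Spp1 model of 354 bases stood at 769 and 915 TPM in sgSCR and at 418 and 691 in shSCR. Twist2 differed by -1.32 ± 0.45 (edgeR adjusted p = 0.132), Cd36 by -0.93 ± 0.32 (0.137), Cebpa by -1.16 ± 0.43 (0.164) and Mkx by -0.85 ± 0.33 (0.180).

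Leaving out shSCR 2 left shSCR 1 as the lone hairpin control. In reads, Ibsp was then higher by 4.90, and Sox9, Scx, Twist1 and Twist2 lower, with log2 differences of -0.96, -1.75, -1.57 and -2.37. In TPM, Twist1 was 57.3 in shSCR 1 against 80.8 and 80.3 in sgSCR, and Scx 9.47 against 16.5 and 16.9. Sox9 was 45.1 against 76.7 and 74.0, and Twist2 22.2 against 105 and 80.1. Leaving out shSCR 1 gave 0 calls among the 22 and brought the difference to -0.40 for Sox9, -0.76 for Cebpa and -0.71 for Twist2. Without sgSCR 1 the Mkx difference was -0.50. Of the 7 skin fibroblast markers 3 were past the edgeR threshold and lower, and without Dcn the other 6 summed to 266 and 246 TPM in shSCR and 288 and 284 in sgSCR. Most of that remainder was Pdgfra (174 and 133 TPM in shSCR, 115 and 147 in sgSCR) and Cd34 (84.9 and 106, 83.4 and 86.2). Lum stood at 0.850 and 1.69 TPM in shSCR against 64.7 and 27.4 in sgSCR, and Col15a1 at 0.781 and 0.529 against 6.48 and 8.09. Dpt stood at 3.32 and 3.13 against 13.4 and 11.7, and Pi16 at 2.97 and 1.74 against 5.22 and 3.88. Macrophage markers showed no common direction, with 5 higher and 9 lower.

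Both systems together were fitted with 1 Mif term and 1 system term. With edgeR, 0 of 22 genes passed, against 0% of all genes, and Spp1 was lower and Sox9 higher at an unadjusted p under 0.05, as were 3.73% and 4.27% of all genes. DESeq2 called 1, Spp1 (adjusted p = 0.00128), against 1.76% of the genes it tested. Spp1 differed by -0.56 ± 0.11 (edgeR adjusted p = 0.193) and Sox9 by 0.41 ± 0.13 (edgeR adjusted p = 0.441). Runx2 was the gene whose 4 libraries labelled for Mif targeting, at 147 to 166 CPM, were all above its 4 control libraries, at 119 to 142 CPM. Such separation was seen upward for 1.64% of all genes and downward, where no member showed it, for 1.77%. The Runx2 difference was 0.24 ± 0.11 (edgeR adjusted p = 0.627), and in TPM the groups overlapped.

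Some settings that test the same reads otherwise brought members past the threshold. Without the filter on low counts, edgeR called Spp1 and Cd36 lower in the guide comparison, against 6.11% of all genes, and Cd36 higher in the hairpin comparison, against 2.71%. Under that setting it also called Cd36, Cebpa and Twist2 in the interaction, against 5.34%, and 6 members between the controls, against 9.91%, while the joint fit had 0 calls among the members, against 2.24%. Cd36 was thus called in opposite directions in the 2 systems by DESeq2 and by unfiltered edgeR alike. In the 5 libraries with high olfactory receptor reads, edgeR called 6 members in the hairpin comparison, against 7.17%, 4 in the interaction, against 6.16%, and 8 between the controls, against 16.9%. There the guide comparison and the joint fit had 0 calls among the members, against 3.29% and 0%. Those calls rest on shSCR 1 as the lone hairpin control. Without shSCR 2 the interaction had 3 calls, Scx, Twist1 and Twist2, against 3.01%, and the guide comparison and the joint fit 0, against 1.86% and 0.00571%.

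Further genes of the same lineages, 105 in all and 73 of them tested, were counted beside the listed ones. In the guide comparison edgeR called 0 higher and 1 lower, Tnfrsf11b, with 3 higher and 11 lower at an unadjusted p under 0.05 and 1 higher and 7 lower by DESeq2. Over all genes edgeR called 0.987%, unadjusted p were under 0.05 for 9.09% higher and 7.51% lower, and DESeq2 called 6.05%. Tnfrsf11b encodes osteoprotegerin, the decoy receptor by which bone-forming cells restrain osteoclasts. It stood at 34.7 and 30.5 TPM in sgSCR and 9.98 and 7.85 in sgMif, and fell by 1.85 ± 0.24 on the log2 scale (edgeR adjusted p = 0.0288). Plin2, a lipid-droplet coat protein made by most cells, stood at 340 and 389 TPM in sgSCR, 195 and 158 in sgMif, 1136 and 757 in shSCR and 472 and 394 in shMif. Its differences were -1.05 ± 0.20 in the guide comparison (edgeR adjusted p = 0.055) and -0.95 ± 0.20 in the hairpin comparison (edgeR adjusted p = 0.352). Unlike Cd36, Cebpa and Lpl, it was lower in sgMif and in the libraries labelled shMif than in their controls.

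In the hairpin comparison edgeR called 0 of the 73 further genes, with 9 higher and 2 lower at an unadjusted p under 0.05 and 4 higher and 1 lower by DESeq2. The shares over all genes were 0.0184% by edgeR, 4.18% higher and 5.08% lower unadjusted, and 1.17% by DESeq2. Of the 9, 5 were from the tendon list, Egr1 and Egr2 among them. Col1a1, the main collagen of bone and tendon, stood at 651 and 906 TPM in shSCR and 1211 and 2288 in shMif, a difference of 1.36 ± 0.30 (edgeR adjusted p = 0.407).

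Between the controls edgeR called 1 further gene higher and 6 lower, with 5 higher and 23 lower at an unadjusted p under 0.05 and 4 higher and 14 lower by DESeq2. Over all genes the shares were 4.02% by edgeR, 12.9% and 10% unadjusted, and 12.2% by DESeq2. Plin2 rose by 1.17 ± 0.20 in shSCR (edgeR adjusted p = 0.0232). Those that fell included Mgp, an inhibitor of matrix calcification, the tendon-list genes Fmod, Egr1 and Egr2, and the mesenchymal factor Foxc2. Egr1, an early-response factor that also acts in tendon, stood at 189 and 175 TPM in sgSCR and 24.8 and 38.8 in shSCR (edgeR adjusted p = 0.00471). Fmod was listed at 0 TPM in both shSCR libraries and at 0.464 and 0.317 in sgSCR. All 10 tested tendon-list genes were lower in shSCR, with a median of -1.73, and Fmod, Kera, Six2 and Cilp2 had a mean under 1 TPM. Over all 16309 genes 8546 were lower, with a median of -0.04. Most further mesenchymal (13 of 15 tested, median -0.68), bone (12 of 15, -0.79) and fat genes (12 of 16, -0.66) were also lower. In the further cartilage and muscle lists 3 of 7 and 4 of 10 were lower. In the interaction and in the joint fit edgeR called 0 of the 73, with 2 higher and 17 lower, and 4 higher and 4 lower, at an unadjusted p under 0.05. DESeq2 called 0 higher and 8 lower in the interaction and 1 higher and 2 lower in the joint fit. The shares over all genes were 0.092% and 0% by edgeR, 8.93% higher and 6.83% lower, and 4.27% higher and 3.73% lower, unadjusted, and 3.86% and 1.76% by DESeq2.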

How the data were processed

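Bulk RNA was sequenced from 8 sorted tumour-cell libraries. The authors deposited 1 Salmon table per library, which per the file headers holds an estimated count of reads (NumReads), TPM and an effective length for each transcript. The submitters' processing notes name Trimmomatic, Salmon and build mm10. Their versions, the transcript release and the use of strand are not stated there. Without known strand use, reads of overlapping antisense genes cannot be told apart.

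Of 116546 transcripts 115977 were matched to the GENCODE annotation for GRCm38 and summed to 35498 genes. The 569 unmatched held 0.101% to 0.205% of reads. Summed estimated counts were rounded and filtered with edgeR 4.0.16 (filterByExpr, minimum count 10, minimum total 15), which left 16309 genes and 22 of the 32 members, and were scaled by TMM. A quasi-likelihood test on 4 group means (4 residual degrees of freedom) gave the 4 contrasts, and an additive model (5 residual degrees of freedom) the joint effect. P-values were adjusted by Benjamini-Hochberg over all tested genes, with a threshold of 0.05. SE is the log2 difference divided by the square root of F, and n is 2 libraries per group. R was 4.3.3 and DESeq2 1.42.0. The procedure was tested on simulated data. Counts in CPM carry no length correction, while TPM does. Members that passed the filter did so on their level, so they do not speak for all 32.

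The members and gene lists were chosen with earlier results of these data known. Every member is named. Those with a mean of at least 1 TPM are given in each library, and a difference is given with its SE where the unadjusted p was under 0.05, or where a member is contrasted with those. Up to 3 further genes per lineage with the smallest p could be named, and called ones were named, except 1 that is not reported here. Libraries of a group differed by more than sampling noise (chi-square per degree of freedom 25.7 to 130), so none is a repeat deposit of another. Whether they are biological replicates is not known. Alternatives were other size factors, DESeq2, no filter, length-scaled counts, coding transcripts only, a replicate block, each system alone, the library class by olfactory receptor reads (above or below 1000 CPM) and leaving out each library.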

Additional observations from a re-analysis of the deposited data

Results flagged for a closer look

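Of the 22 tested members 4 separated in opposite directions in the guide and hairpin systems in CPM, all lower in the first and higher in the second, as did 5.09% of all 16309 genes. In either order 13.1% of all genes separated oppositely. Both sgMif libraries were below both sgSCR libraries, while both libraries labelled shMif were above both shSCR libraries. The difference of effects on the log2 scale was -2.52 for Cd36, -2.28 for Cebpa, -1.50 for Lpl and -0.936 for Mkx. The interaction test of edgeR gave adjusted p of 0.110, 0.175, 0.205 and 0.370, so none passed the threshold. For Mkx the groups overlapped in TPM in both systems. Summed macrophage markers stood at 352 and 168 TPM in sgSCR, 135 and 99.9 in sgMif, 199 and 238 in shSCR and 404 and 201 in shMif. Without Lyz2 they stood at 307 and 133 TPM in sgSCR, 60.2 and 65.8 in sgMif, 114 and 147 in shSCR and 238 and 121 in shMif. The hairpin groups overlapped in both sums, and the part of macrophages was not tested.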

How the results depend on the processing

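With edgeR as described, 0 members were called in each of the 5 comparisons. The count stayed 0 with other size factors, length-scaled counts, coding transcripts, the library class as a term and each system alone where it could be fitted. DESeq2 called 3 in sgMif against sgSCR, 1 in shMif against shSCR, 2 in the interaction, 4 between the controls and 1 in the joint fit. Without the filter on low counts the numbers were 2, 1, 3, 6 and 0. In the 5 libraries with high olfactory receptor reads they were 0, 6, 4, 8 and 0, where sgMif 1, shSCR 1 and shMif 1 stand alone in their groups and are assumed to vary like sgSCR. Leaving out 1 library in turn gave 0 to 0, 0 to 4, 0 to 3, 0 to 5 and 0 to 0, and every nonzero count came from leaving out shSCR 2. No difference with an unadjusted p under 0.05 changed sign in the alternatives run. The cause was not tested.

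The 2 libraries of a group share only a number with those of other groups. Same-numbered libraries deviated together with correlations of 0.154 to 0.371 over 6 pairs of groups. With the replicate block, 0 members were called in every comparison, and over all genes 263, 14, 50, 210 and 0 were called.

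Over all genes edgeR called 161, 3, 15, 655 and 0 in the same order. DESeq2 gave 935, 169, 578, 1830 and 256, no filter 1494, 662, 1306, 2425 and 549, length-scaled counts 15, 5, 0, 288 and 0, coding transcripts 128, 3, 0, 510 and 0, each system alone 223, 0 and (controls) 133, the class term 49, 7, 19, 669 and 0, and the high-class libraries 534, 1162, 999, 2747 and 0. Leaving out 1 library gave 0 to 356, 0 to 758, 0 to 527, 60 to 1848 and 0 to 1. For members under 1 TPM depth limits any comparison.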

Other observations

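Other marker lists gave these summed levels over the 8 libraries. Of 9 endothelial markers, Pecam1 alone stood at 11.5 to 22.1 TPM in sgMif 2, shSCR 2 and shMif 2 and at 70.7 to 174 TPM in the other libraries, the same division as for olfactory receptor reads. The other 8 endothelial markers summed to 11.7 to 15.1 TPM in 6 libraries, 24.7 in sgSCR 2 and 57.1 in sgMif 1. For 4 neutrophil markers the sum ran from 8.91 to 112 TPM and for 5 osteoclast markers from 3.66 to 23.2. For 4 T cell markers it ran from 1.02 to 6.36 and for 6 keratinocyte markers from 2.15 to 7.14. The 6 pericyte markers summed to 42.9 to 76.5 TPM, most of it Cspg4, and the other 5 to 0.562 to 3.43 TPM. The 4 B cell markers summed to 2.31 to 52.7 TPM. Ighm alone gave 46.8 TPM in sgSCR 2, the highest library, and the other 3 B cell markers summed to 1.72 to 9.13 TPM. The cartilage list outside the members held 17 genes, of which 2 reached a mean of 1 TPM, while 9 of 18 further bone genes and 13 of 19 further mesenchymal genes did.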
